A study of Mus musculus with 9 samples.

Results

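Iron metabolism was examined in the liver through 10 genes of the hepcidin and iron handling machinery, namely Hamp, Hamp2, Bmp6, Hfe, Tfr2, Tfrc, Trf, Fth1, Ftl1 and Slc40a1. They were chosen by symbol, all 10 were found among the 33211 genes of the table, and all 10 passed the filter on low counts, which left 14220 genes for the test. The liver RNA came from mice of the inbred strain C57BL/6 in the labels, given as C57BL6/J in the methods of the study, with no transgene or drug named for any group. Per the methods of the study, wild-type males of 8 weeks were fed a high-fat diet (HFD) for 7 weeks. After opening, the diet was kept in a freezer at -20 °C (HFDfre, n = 5 libraries) or in a fridge at 4 °C (HFDfri, n = 4 libraries), so both groups received the same high-fat formula and no chow-fed group was analysed here. The question is what storing the diet warmer does to liver expression, here of iron genes. The labels do not state that each library was a separate animal, so the p-values measure the spread between these libraries.

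Hepcidin is the peptide hormone by which the liver controls body iron. It is secreted by hepatocytes and makes ferroportin, the iron exporter encoded by Slc40a1, be degraded, so that iron stays in gut cells, macrophages and the liver itself. Its transcription is raised by bone morphogenetic proteins, mainly BMP6 from the sinusoidal endothelium, acting through SMAD proteins with HFE and TFR2 as helpers, and by interleukin-6 acting through STAT3. Inside cells, iron regulatory proteins bind hairpins in messenger RNAs, called iron-responsive elements, which block translation of ferritin and stabilise the transferrin receptor message when iron is scarce. Mice carry 2 hepcidin genes, Hamp and Hamp2, where humans have a single gene.

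The Hamp and Hamp2 genes lie next to each other on the minus strand of chromosome 7, with 17686 bases between them. Hamp spans chr7:30942368-30944032 and Hamp2 spans chr7:30922372-30924681 (GRCm38, GENCODE M21). The 150 bases upstream of each RefSeq start site are shown because the BMP and STAT inputs are known to reach Hamp there. Both sequences are from the RefSeq table of GRCm38.p6, on the minus strand, at chr7:30944030-30944179 for Hamp and chr7:30924182-30924331 for Hamp2. GENCODE also has a Hamp2 transcript that begins farther upstream, at 30924681, so the Hamp2 stretch lies before the RefSeq start site but inside the span of the gene. The first stretch in capitals is the BMP-responsive hexamer of Hamp or the hexamer aligned with it in Hamp2, and the second is the STAT motif.
Hamp: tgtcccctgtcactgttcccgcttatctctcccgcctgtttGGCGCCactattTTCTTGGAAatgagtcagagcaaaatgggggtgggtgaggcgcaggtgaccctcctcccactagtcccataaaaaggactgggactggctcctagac
Hamp2: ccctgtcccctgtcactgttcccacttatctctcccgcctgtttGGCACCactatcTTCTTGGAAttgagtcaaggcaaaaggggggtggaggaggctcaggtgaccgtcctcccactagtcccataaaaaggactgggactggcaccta

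The promoters of the pair were identical at 227 of 247 aligned bases (91.9%), with 6 gap positions. The hexamer GGCGCC stood at -109 to -104 from the Hamp start site and GGCACC at -106 to -101 in Hamp2, a difference of G4A counted from the first base of the hexamer, with the Hamp base first. The letters TTCTTGGAA were the same in both, at -97 to -89 in Hamp and at -94 to -86 in Hamp2. Over the 250 bases upstream of 27025 genes, searched on both strands, GGCGCC was present in 10.8% of promoters, TTCNNNGAA in 8.13% and the AP-1 motif TGAGTCA in 5.16%. Among the 8 of the 10 genes with a promoter in the table, GGCGCC was found in Hamp and Tfrc, TTCNNNGAA in Hamp and Hamp2, and TGAGTCA in Hamp, Hamp2 and Hfe. A match of letters is a description of sequence and not of binding.

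The hairpins of the iron-responsive elements are shown next because they divide the genes by their type of control. The pattern searched was a stem of 5 paired bases under the loop CAGTG followed by A, C or T, with an unpaired C below those pairs. It was found in the 5′ UTR of 23 of 21200 genes (0.108%) and in the 3′ UTR of 110 of 21849 genes (0.503%) of GENCODE M21. The loop is in capitals in each 30-base stretch, written 5′ to 3′ in the direction of the messenger RNA.
Fth1, 5′ UTR, chr19:9982732-9982761, plus strand: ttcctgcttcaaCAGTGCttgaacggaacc
Ftl1, 5′ UTR, chr7:45459778-45459807, minus strand: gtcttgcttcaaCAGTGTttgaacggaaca
Slc40a1, 5′ UTR, chr1:45925464-45925493, minus strand: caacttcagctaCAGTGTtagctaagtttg
Tfrc, 3′ UTR, chr16:32631219-32631248, plus strand: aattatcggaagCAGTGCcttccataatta
Tfrc, 3′ UTR, chr16:32631598-32631627, plus strand: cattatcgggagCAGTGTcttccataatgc

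Tfrc, the classical transferrin receptor, held 4 such hairpins in its 3′ UTR, of which the first pair by position is printed. Fth1, Ftl1 and Slc40a1 each held 1 in the 5′ UTR. By textbook knowledge, elements at the 5′ end act on translation and those at the 3′ end on the stability of the message. RNA levels can therefore carry the second kind of control, mixed with that of transcription, and the first kind hardly at all.

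Library totals lay between 58614917 and 69353439 counts. A ribosomal RNA-like locus, Gm26924, took 1.199 to 11.09% of them in HFDfre and 0.4659 to 5.213% in HFDfri. It was highest in HFDfre 1, 2 and 4 and HFDfri 3, at 11.09, 7.503, 5.576 and 5.213%, so it was uneven between the groups. HFDfre 4 stood apart from its group in hepcidin, and leaving out HFDfri 1 raised the number of genes called in the whole table from 150 to 1106, so values that these libraries moved the most are also given without them.

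Per kilobase of exon, Trf, Ftl1 and Hamp were the most abundant of the 10 genes and Bmp6 the least. The level is given in CPM, the part a gene takes of its TMM-scaled library, divided by the union of the annotated exons. That union was 410 bases for Hamp, 3469 for Fth1 and 9000 for Slc40a1. It can be longer than the transcript made in liver, so the order depends on it. By CPM alone, Fth1 at 1294 stood above Hamp at 570.5 in HFDfre. In HFDfre the order was Trf at 2471 ± 140.0 CPM per kilobase, Ftl1 at 2438 ± 324.9, Hamp at 1391 ± 640.6, Fth1 at 372.9 ± 56.59 and Hamp2 at 154.2 ± 52.39 (SD, n = 5). Below them were Tfr2 at 58.04 ± 3.981, Slc40a1 at 8.501 ± 1.278, Hfe at 7.215 ± 0.3613, Tfrc at 1.704 ± 0.4225 and Bmp6 at 0.1557 ± 0.04044 CPM per kilobase. The neighbours Trf and Ftl1 differed by less than their SD, and Slc40a1 and Hfe by about the SD of Slc40a1. In HFDfri the order was the same except that Tfr2 and Hamp2 changed places, from Trf at 2658 ± 128.7 to Bmp6 at 0.2495 ± 0.1335 CPM per kilobase (SD, n = 4). Ftl1 stood at 1790 ± 190.5 there and Hamp2 at 55.36 ± 31.19, just below Tfr2 at 63.23 ± 2.353 CPM per kilobase and within its own SD of it. Slc40a1 at 6.595 ± 2.064 and Hfe at 6.376 ± 0.7857 CPM per kilobase also differed by less than their SD.

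None of the 10 genes passed the edgeR quasi-likelihood test at an adjusted p of 0.05, where 150 of the 14220 tested genes did (1.05%, 71 higher and 79 lower in HFDfri). Scaling by library totals gave 76 genes, 72.37% of them higher against 47.33% here. Of the 10, 3 were lower in HFDfri at an unadjusted p under 0.05, Hamp2, Fth1 and Ftl1, against 9.79% of all tested genes, and 0 were higher, against 11.4%. DESeq2, the tool of the study, gave an adjusted p under 0.05 for those 3, with 7.26% of all tested genes called. The median log2 fold change of the 10 was -0.27, with 3 higher and 7 lower, against -0.0068 over all tested genes.

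**Figure D1:**
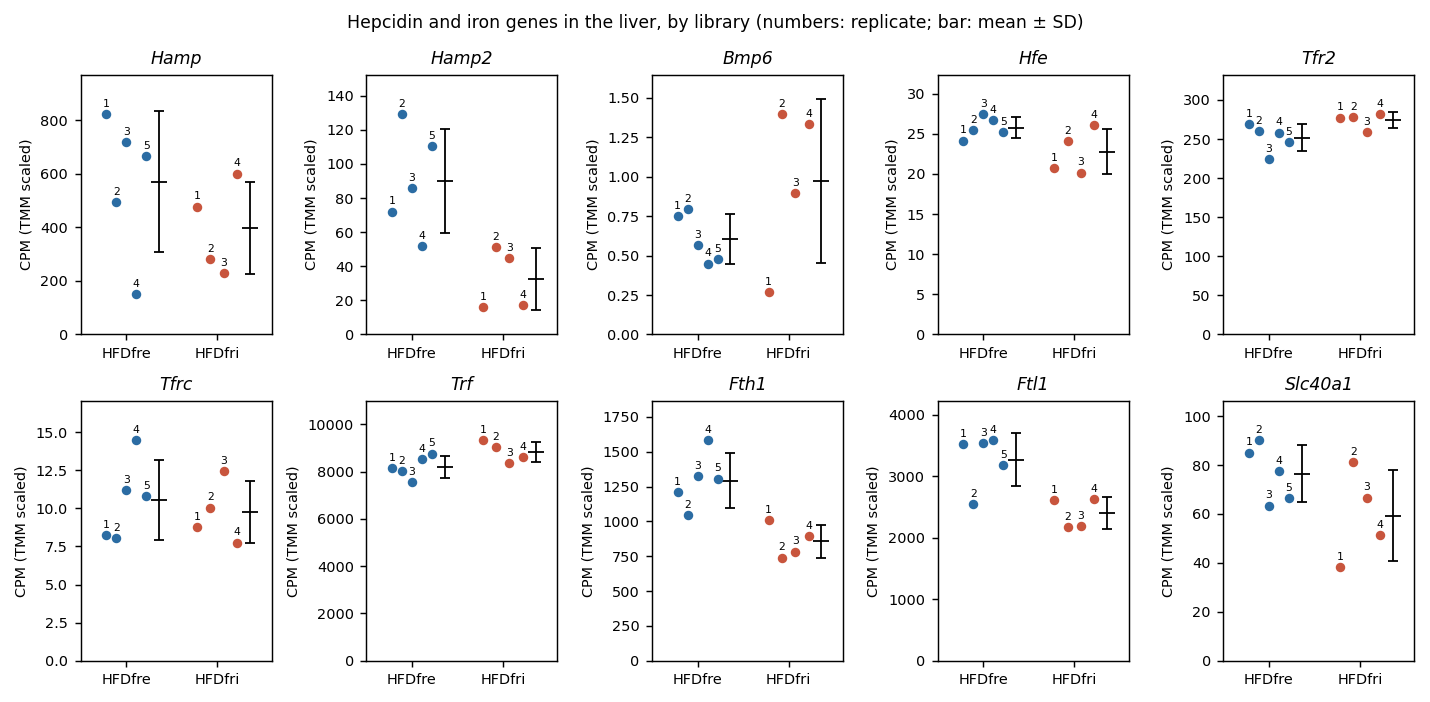
CPM of each of the 10 genes (vertical axes from 0) in the 5 HFDfre and 4 HFDfri libraries, each point numbered by replicate, with mean ± SD beside the points. Hamp2 and Fth1 show no overlap between the groups, as do 7.69% of all tested genes. Hamp overlaps widely, with HFDfre 4 at 150.9 CPM below every other library.

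Hamp, the hepcidin gene proper (ENSMUSG00000050440), stood at 821.9, 495.2, 718.6, 150.9 and 665.7 CPM in HFDfre 1 to 5. In HFDfri 1 to 4 it stood at 476.8, 281.6, 228.2 and 600.5 CPM. The lowest value of all 9 was in an HFDfre library, and the groups overlapped. The mean was 570.5 ± 262.6 in HFDfre and 396.7 ± 172.8 CPM in HFDfri, and the log2 fold change of -0.52 ± 0.41 (SE) did not exceed the spread of the libraries (edgeR adjusted p = 0.4976). HFDfre 4 weighed on it, since the log2 fold change without that library was -0.77 (edgeR adjusted p = 0.1568). Without HFDfri 4 it was -0.80 and without HFDfri 3 it was -0.33, so a difference in Hamp was not detectable with these libraries.

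Hamp2 (ENSMUSG00000056978), the second copy, whose product is not known to act as the iron hormone, was lower in every HFDfri library than in any HFDfre library. Its values were 72.11, 129.2, 85.98, 51.99 and 110.3 CPM in HFDfre 1 to 5. They were 16.19, 51.11, 44.6 and 17.21 CPM in HFDfri 1 to 4. HFDfre 4 and HFDfri 2 nearly met, and the absence of overlap is a pattern that 7.69% of all tested genes showed. The mean was 89.92 ± 30.54 against 32.27 ± 18.19 CPM, which is 2.783-fold lower, with a log2 fold change of -1.48 ± 0.37 (SE, unadjusted p = 0.001775 by edgeR). The adjusted p was 0.07213 by edgeR and 0.01633 by DESeq2.

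The Hamp2 call depended on single libraries. Without HFDfri 1 the log2 fold change was -1.27 (edgeR adjusted p = 0.04954, with 7.65% of all tested genes called in that fit), and without HFDfri 2 it was -1.79 (edgeR adjusted p = 0.04584, with 1.63% called). Exons of Hamp2 are overlapped by a lincRNA on the opposite strand, Gm44662, whose reads cannot be told from those of Hamp2 because the use of strand in counting is not given in the sources used here. The reference transcripts of Hamp and Hamp2, of 410 and 437 bases, were 94.6% identical. Windows of 50 bases were shared for 16.6% of Hamp and 11.2% of Hamp2, but 0 windows of 100 or 150 bases were, and the reads were 150 bases long.

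The sum of the copies, which does not depend on how reads were divided between them, was compared as well. Hamp and Hamp2 together gave 894.0, 624.4, 804.6, 202.9 and 776.1 CPM in HFDfre 1 to 5, and 493.0, 332.7, 272.8 and 617.7 CPM in HFDfri 1 to 4. As in Hamp, HFDfre 4 was the lowest library of all. On the log2 CPM scale the sum was 9.20 ± 0.88 in HFDfre and 8.67 ± 0.53 in HFDfri, a difference of -0.53 (two-sided exact permutation p = 0.3333, smallest possible 0.007937). Without HFDfre 4 the difference was -0.91 (exact permutation p = 0.02857, the smallest that 4 against 4 libraries can give). That library was the lowest in this same measure, and without it the groups were apart by 624.4 against 617.7 CPM only.

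Hamp2 made up 8.066, 20.69, 10.69, 25.62 and 14.22% of the summed counts in HFDfre 1 to 5. The shares were 3.283, 15.36, 16.35 and 2.786% in HFDfri 1 to 4. HFDfri 1 and HFDfri 4 held the lowest shares, at 476.8 and 600.5 CPM of Hamp. HFDfri 2 and HFDfri 3 had shares inside the HFDfre range, at 281.6 and 228.2 CPM of Hamp. All of these Hamp levels lay within the HFDfre range of 150.9 to 821.9 CPM. The 2 copies therefore did not keep a fixed ratio from library to library.

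**Figure D2:**
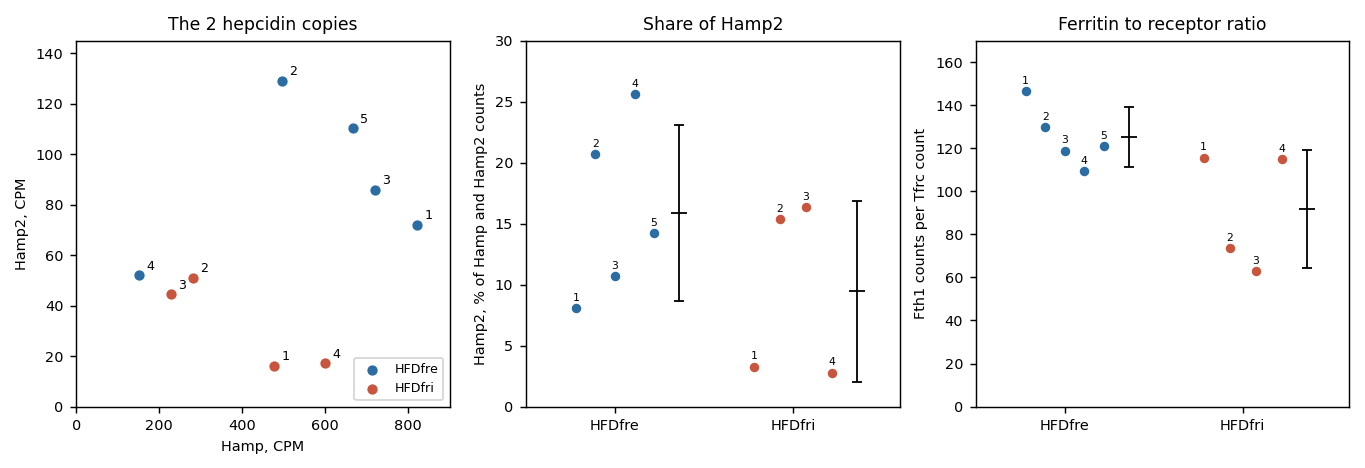
Left, CPM of Hamp (horizontal) and Hamp2 (vertical) in each of the 9 libraries, numbered by replicate, with both axes from 0. Middle and right, the share of Hamp2 in the summed counts (%) and the ratio of Fth1 to Tfrc counts, by library with mean ± SD. HFDfri 1 and HFDfri 4 have under 4% Hamp2 at 476.8 and 600.5 CPM of Hamp, and HFDfri 2 and HFDfri 3 have the lowest ratios, 73.7 and 63.03.

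The ligand and the sensors upstream of hepcidin did not pass the test. Bmp6 (chr13:38345107-38500302), the main BMP ligand for hepcidin, was at 0.6073 ± 0.1577 CPM in HFDfre and 0.9731 ± 0.5206 in HFDfri, a log2 fold change of 0.69 ± 0.43 (SE, edgeR adjusted p = 0.3877). Its values in HFDfri 1 to 4 were 0.2671, 1.397, 0.896 and 1.333 CPM, both below and above the HFDfre range of 0.4494 to 0.7942. Without HFDfri 1, the lowest of all, the log2 fold change of Bmp6 was 0.98 (edgeR adjusted p = 0.08119). These levels rest on 15 to 101 counts per library, and exons of Bmp6 overlap Txndc5 on the opposite strand.

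Hfe (chr13:23702034-23710854), which encodes the protein altered in classical haemochromatosis, was at 25.77 ± 1.29 CPM in HFDfre and 22.77 ± 2.807 in HFDfri, with overlap. The log2 fold change was -0.18 ± 0.10 (SE, edgeR adjusted p = 0.3238). Tfr2 (chr5:137569840-137587481), the sensor of transferrin-bound iron in hepatocytes, was at 251.7 ± 17.26 and 274.2 ± 10.2 CPM. Its log2 fold change was 0.12 ± 0.09 (SE, edgeR adjusted p = 0.4361), and 0.079 without HFDfre 3. The coefficient of variation of its CPM was 6.859% in HFDfre and 3.721% in HFDfri. For Hamp the coefficients were 46.04 and 43.56%.

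The uptake genes among the 10 did not pass the test either. Trf (chr9:103204001-103230444), the plasma iron carrier transferrin, was at 8203 ± 464.7 CPM in HFDfre and 8823 ± 427.4 in HFDfri, a log2 fold change of 0.11 ± 0.10 (SE, edgeR adjusted p = 0.5948) that was 0.067 without HFDfri 1. Of its 150-base windows, 49.5% are shared with the overlapping gene model Gm20425, so part of its reads may have been counted there. Tfrc (chr16:32608920-32632794), which brings transferrin into cells, was at 8.241, 8.036, 11.17, 14.45 and 10.82 CPM in HFDfre 1 to 5 and at 8.743, 10.04, 12.44 and 7.749 CPM in HFDfri 1 to 4. HFDfre 4, with the lowest Hamp, had the highest Tfrc. The log2 fold change of Tfrc was -0.11 ± 0.19 (SE, edgeR adjusted p = 0.7754), turning to 0.026 without HFDfre 4.

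Both ferritin subunits, which together form the shell that stores iron, had lower values in HFDfri. Fth1 (chr19:9980598-9985098), the heavy chain, was at 1208, 1043, 1328, 1581 and 1308 CPM in HFDfre 1 to 5. In HFDfri 1 to 4 it was at 1011, 739.9, 783.9 and 892.1 CPM. No HFDfri library reached the lowest HFDfre library, and 7.69% of all tested genes had no overlap in either direction. The mean was 1294 ± 196.3 against 856.8 ± 121.3 CPM, 1.51-fold lower, with a log2 fold change of -0.59 ± 0.14 (SE, unadjusted p = 0.000989 by edgeR). The edgeR adjusted p was 0.05893, and the DESeq2 adjusted p was 0.001642.

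Ftl1 (chr7:45457944-45459884), the light chain, was at 3513, 2544, 3530, 3578 and 3173 CPM in HFDfre 1 to 5 and at 2605, 2166, 2189 and 2632 CPM in HFDfri 1 to 4. HFDfre 2 fell among the HFDfri libraries, and the other HFDfre libraries stood above them. The mean was 3268 ± 435.4 against 2398 ± 255.2 CPM, 1.363-fold lower, with a log2 fold change of -0.45 ± 0.13 (SE, unadjusted p = 0.004904 by edgeR). The edgeR adjusted p was 0.1006, and the DESeq2 adjusted p was 0.013. Without HFDfri 1 both chains passed with edgeR, Fth1 at -0.69 (adjusted p = 0.02142) and Ftl1 at -0.50 (adjusted p = 0.04861). That fit called 7.65% of all tested genes, against 1.05% with all 9 libraries. Of the 150-base windows of Ftl1, 23.9% are shared with pseudogenes such as Ftl1-ps1, so its level is uncertain by an amount that was not measured.

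The ratio of the chains, Ftl1 to Fth1 counts, was 2.539 ± 0.2494 in HFDfre and 2.812 ± 0.1719 in HFDfri. The ratio of Fth1 to Tfrc counts was 146.6, 129.8, 118.9, 109.4 and 120.9 in HFDfre 1 to 5. It was 115.7, 73.7, 63.03 and 115.1 in HFDfri 1 to 4. HFDfri 1 and HFDfri 4 lay within the HFDfre range, and HFDfri 2 and HFDfri 3 lay below it. Slc40a1 (chr1:45908068-45926523), the ferroportin gene, was at 76.51 ± 11.5 CPM in HFDfre and 59.35 ± 18.57 in HFDfri, with overlap and a log2 fold change of -0.37 ± 0.19 (SE, edgeR adjusted p = 0.2987). Its values in HFDfri 1 to 4 were 38.37, 81.12, 66.71 and 51.2 CPM, and without HFDfri 1 the log2 fold change was -0.22.

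**Figure D3:**
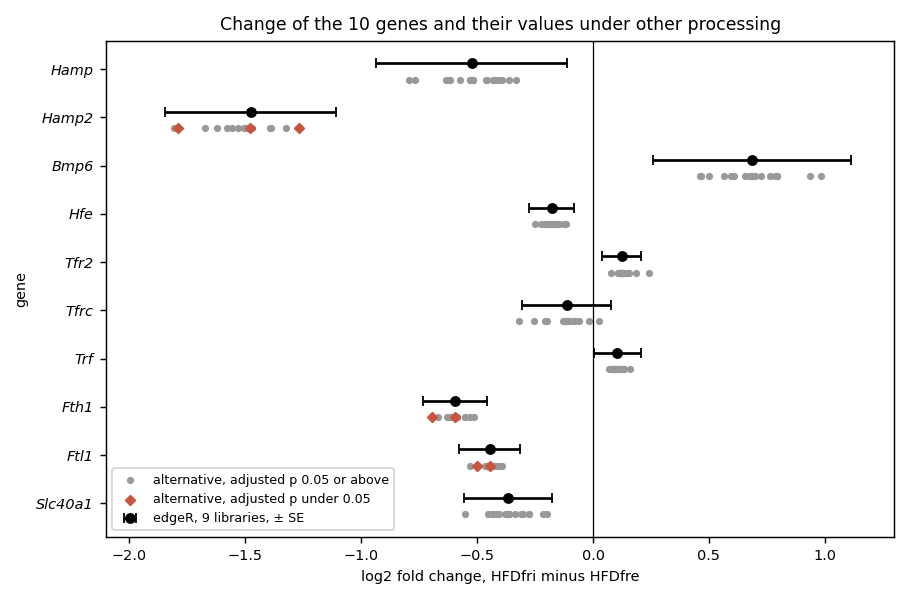
Log2 fold change of HFDfri minus HFDfre (horizontal axis) for each of the 10 genes by edgeR in all 9 libraries (black, ± SE), with the value under each of 19 alternatives below it. Red diamonds mark an adjusted p under 0.05, which occurs for Hamp2, Fth1 and Ftl1, and the values of Tfrc lie on both sides of 0.

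Beyond the 10 genes, 8 lists of iron genes held 83 genes, of which 82 were tested. Over these lists 6 genes passed the edgeR test at an adjusted p of 0.05, all of them higher in HFDfri, where 0.499% of all tested genes were called higher. In all, 44 were higher and 38 lower, and the median was 0.02 on the log2 scale. The lists include 9 of the 10 genes, all but Hamp2, and were chosen with results of these data known.

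The inputs to hepcidin other than BMP, 10 genes around interleukin-6, STAT3 and liver transcription factors, had 8 higher and 2 lower with 3 called, all higher, and a median of 0.36. Stat3, the transcription factor that carries the interleukin-6 signal to the hepcidin promoter, was at 39.59, 45.6, 37.26, 38.35 and 47.06 CPM in HFDfre 1 to 5. In HFDfri 1 to 4 it was at 100.3, 64.67, 56.45 and 90.65 CPM. Every HFDfri library lay above every HFDfre library, and 7.69% of all tested genes had no overlap in either direction. The log2 fold change of Stat3 was 0.91 ± 0.16 (SE, edgeR adjusted p = 0.03221). Il6st, the shared receptor chain gp130, rose from 61.37 ± 3.986 to 84.83 ± 10.65 CPM, with a log2 fold change of 0.47 ± 0.10 (SE, edgeR adjusted p = 0.04729). Jak1, the kinase bound to that chain, rose from 50.05 ± 2.702 to 64.41 ± 3.098 CPM, with a log2 fold change of 0.36 ± 0.08 (SE, edgeR adjusted p = 0.04957). Il6ra, Socs3 and Jak2, also of this list, were not called. They were at 0.81, 0.35 and -0.06 on the log2 scale (edgeR adjusted p = 0.2341, 0.613 and 0.852). Whether the interleukin-6 signal itself changed was not tested.

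The uptake list of 14 genes had 10 higher and 4 lower with 3 called, all higher, and a median of 0.15. Scara5, a receptor for ferritin, was at 8.453, 8.238, 4.879, 11.32 and 7.053 CPM in HFDfre 1 to 5 and at 32.46, 19.95, 18.95 and 29.48 CPM in HFDfri 1 to 4. The groups were apart, as in 7.69% of all tested genes, with a log2 fold change of 1.66 ± 0.23 (SE, edgeR adjusted p = 0.01801). Steap4, a metalloreductase of iron and copper, was at 58.22, 67.31, 76.66, 79.28 and 83.14 CPM in HFDfre 1 to 5. It was at 386.9, 115.2, 123.5 and 228.3 CPM in HFDfri 1 to 4, where HFDfri 1 stood highest. Its log2 fold change was 1.55 ± 0.30 (SE, edgeR adjusted p = 0.03866), and without HFDfri 1 it was 1.08 (edgeR adjusted p = 0.02103). Slc39a14, the transporter ZIP14 for iron not bound to transferrin, rose from 137.5 ± 12.51 to 206.8 ± 34.98 CPM, with a log2 fold change of 0.59 ± 0.12 (SE, edgeR adjusted p = 0.04517).

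Of these 6 calls, Jak1, Il6st and Slc39a14 were closest to the threshold. Scara5 stayed under it in 16 of 19 alternatives, Stat3 in 10 and Jak1 in 6. Steap4, Il6st and Slc39a14 did so in 7 each. Leaving out HFDfre 5 gave 0 calls over the lists, and leaving out HFDfre 1, 2, 3 or 4 or HFDfri 4 gave 1, Scara5. Without HFDfri 3 there were 2, Scara5 and Stat3. Without HFDfri 2 there were 7, in a fit that called 1.63% of all tested genes. Without HFDfri 1 there were 17, in a fit that called 7.65% of all tested genes. Without HFDfre 5 the log2 fold change of Scara5 was 1.61 (edgeR adjusted p = 0.07051) and that of Stat3 was 0.96 (edgeR adjusted p = 0.07051). The directions of all 6 were the same in all 19 alternatives.

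**Figure D4:**
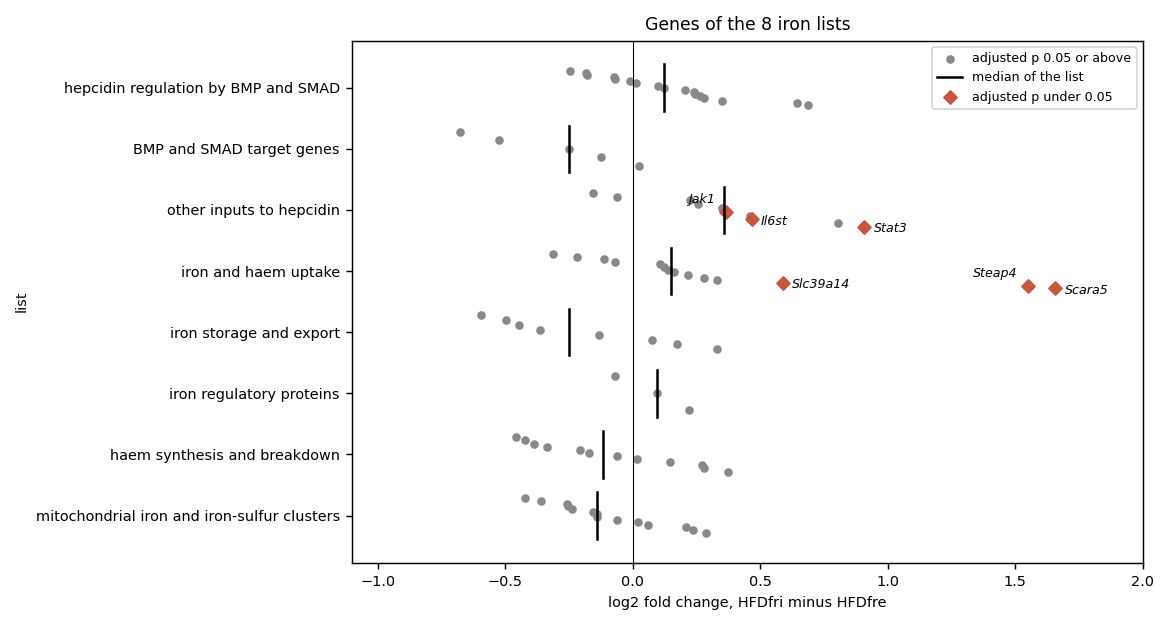
Log2 fold change of HFDfri minus HFDfre by edgeR (horizontal axis) for the 82 tested genes of the 8 iron lists (rows), with each list's median as a black line. Red diamonds mark the 6 genes with an adjusted p under 0.05, which lie in the 2 lists on other inputs to hepcidin and on uptake, while the medians of both lists on BMP targets and on storage and export are at -0.25.

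The BMP and SMAD pathway itself gave 0 calls. Of 17 genes of its ligands, receptors, SMADs and regulators, 11 were higher and 6 lower, with a median of 0.12. DESeq2 also called 0. At an unadjusted p under 0.05 by edgeR, 3 were higher. Of all tested genes, 11.4% were higher and 9.79% lower at that p. The smallest p-values were of receptors, Acvr2a at 0.35 on the log2 scale (edgeR adjusted p = 0.1119) and Bmpr1a at 0.26 (edgeR adjusted p = 0.1493). Of 5 target genes of the pathway, 1 was higher and 4 lower with 0 calls by either tool, 1 at an unadjusted p under 0.05 by edgeR, and a median of -0.25. Smad6, an inhibitory SMAD that the pathway induces, was at 3.056 CPM in HFDfre and 1.906 in HFDfri, which is -0.68 on the log2 scale (edgeR adjusted p = 0.1744), and Hamp followed it in that list.

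Storage and export, 9 genes with 8 tested, had 3 higher and 5 lower, a median of -0.25 and 0 calls by edgeR. DESeq2 called 2, Fth1 and Ftl1, and 7.26% of all tested genes. At an unadjusted p under 0.05 by edgeR, 2 were lower and 1 higher, against 9.79% and 11.4% of all tested genes. Ftmt, mitochondrial ferritin, had 0 counts in all libraries. Of the 3 genes for iron regulatory proteins and their control 0 passed by either tool and 1 had an unadjusted p under 0.05 by edgeR, Ireb2 (IRP2) at 0.22 on the log2 scale (edgeR adjusted p = 0.2061) while Aco1 (IRP1) was at 0.10 (edgeR adjusted p = 0.6633).

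In the list of haem synthesis and breakdown, 5 of 12 were higher and 7 lower, with a median of -0.12. Calls were 0 by edgeR and 4 by DESeq2, which called 7.26% of all tested genes. At an unadjusted p under 0.05 by edgeR, 4 were lower and 2 higher, against 9.79% and 11.4% of all tested genes. Blvrb, which reduces biliverdin, was at 99.67 against 72.54 CPM, or -0.46 on the log2 scale (edgeR adjusted p = 0.062). Alad, an early enzyme of haem synthesis, was at 123.0 against 91.79 CPM, or -0.42 on the log2 scale (edgeR adjusted p = 0.0758). Neither overlapped between the groups, a pattern shown by 5 genes of this list and by 7.69% of all tested genes. Among these 5, Hmox2 was higher in HFDfri. Of 14 mitochondrial iron and iron-sulfur genes, 5 were higher and 9 lower with 0 calls by edgeR and 1 by DESeq2, 3 lower and 1 higher at an unadjusted p under 0.05 by edgeR, and a median of -0.14. Iscu, the scaffold of cluster assembly, was at -0.42 (edgeR adjusted p = 0.1173) and Fdxr, ferredoxin reductase, at -0.24 (edgeR adjusted p = 0.1327).

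The genes whose library-to-library pattern was most like that of Hamp were Cd38, Zc3hav1, Ankra2, RP23-32A8.1 and Gpx3. Their Pearson r with Hamp, over the 9 libraries after subtracting each group's mean log2 CPM and among 10122 genes, was 0.9715, 0.9683, 0.9488, 0.9473 and 0.9327. For Tfrc they were Pdhb, Rps6ka4, Arpc5l, Terf2ip and Aga, with r of 0.9509, 0.9479, 0.9449, 0.9385 and 0.9346. Among so many genes and 9 libraries such values are a description of the ranking only, and the points share each library's depth and scaling.

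The liver label fitted the markers, since 5 hepatocyte markers summed to 82520 to 89050 CPM in HFDfre and 71040 to 99170 in HFDfri, while 2 of 4 fat markers, Adipoq and Plin1, and 3 of 4 pancreas markers, Cpa1, Prss2 and Pnlip, were at 0 in all libraries. The other fat markers were Lep, with counts in HFDfre 5 only, and Cidec, at 4.251 to 38.89 CPM in HFDfre and 3.733 to 14.73 in HFDfri (log2 fold change -1.19, edgeR adjusted p = 0.251). The other pancreas marker, Cela2a, was at 0.07022 to 0.3778 CPM over all libraries. Among the 5 hepatocyte markers 0 were called by edgeR. At an unadjusted p under 0.05 by edgeR, Cps1 was higher, by 0.70 on the log2 scale, and Ttr lower, at -0.43. Of all tested genes, 11.4% were higher and 9.79% lower at that p. In bulk liver, fewer cells of a type and less RNA per cell cannot be told apart. Markers of sinusoidal endothelium, the main source of Bmp6, summed to 71.5 to 81.17 CPM in HFDfre and 53.01 to 84.75 in HFDfri over 6 genes with 0 called by edgeR and 1 at an unadjusted p under 0.05. Kupffer cells, which export iron by ferroportin, had 6 markers with 0 called by edgeR, 0 at an unadjusted p under 0.05, and sums of 50.16 to 115.3 against 61.01 to 81.03 CPM. Erythroid markers summed to 447.3 to 614.3 and 273.0 to 889.4 CPM, with 1 of 5 tested genes higher and 4 lower and a median of -0.25. Alas2, of haem synthesis in red cells, was called by edgeR, higher by 0.40 on the log2 scale (adjusted p = 0.04857), while the globin genes Hba-a1, Hba-a2, Hbb-bs and Hbb-bt were at -0.39, -0.39, -0.18 and -0.25 and were not called. The summed levels of the stellate cell, cholangiocyte and lymphocyte lists overlapped between the groups, with 0 called by edgeR. At an unadjusted p under 0.05 they had 0, 1 (Sox9, higher by 0.93 on the log2 scale) and 0 genes. All 5 lymphocyte genes were lower in HFDfri, with a median of -0.82 and sums of 3.946 to 8.673 CPM in HFDfre against 3.652 to 4.665 in HFDfri. The part of these cells in the values above was not tested. Within the 5 libraries under 3% of the ribosomal locus (HFDfre 3 and 5, HFDfri 1, 2 and 4), the log2 fold change was -1.81 for Hamp2, -0.62 for Hamp, 0.94 for Bmp6, -0.16 for Hfe, 0.24 for Tfr2, -0.32 for Tfrc, 0.13 for Trf, -0.59 for Fth1, -0.45 for Ftl1 and -0.20 for Slc40a1. With edgeR 0 of the 10 were called there, in a fit that called only 2 of 14483 tested genes.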

How the data were processed

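Liver RNA-seq of 5 HFDfre and 4 HFDfri libraries was compared. Total RNA had been extracted with TRIzol and sequenced as paired-end reads of 150 bases. HISAT2, StringTie and the build mm10 are named in the submitters' processing notes; the annotation, versions and use of strand are not given in the sources used here, and the library kit is named differently in the labels and in the methods of the study. The values the authors deposited are estimated counts per gene, whole numbers not scaled between libraries, so rounding left them as they were. Low values pile up at 4, with 3990 entries of 4 beside 2172 entries of 3 and 1840 of 5, so the values are not plain reads and count models treat counting error only approximately.

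Counts were tested with edgeR 4.0.16 in R 4.3.3 (quasi-likelihood, TMM, filterByExpr by group, no covariate), and p-values were adjusted by Benjamini-Hochberg over all tested genes with a threshold of 0.05. The SE of a log2 fold change is its size over the square root of F. Log2 CPM used a prior count of 2. DESeq2 1.42.0, the tool of the study, and limma 3.58.1 (voom) were alternatives, with others given below. Scripts were tested on simulated data. Of the gene identifiers, 96.5% are in GENCODE M21 (GRCm38), the source of positions and hairpins, and promoters are from RefSeq.

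Named are the 10 genes, every iron-list gene with an adjusted p under 0.05, in each list without one the 2 genes with the smallest p, and the 5 genes most like Hamp and most like Tfrc whose mean log2 CPM reached 1. Alas2, Sox9, Cps1, Ttr, Hmox2, Il6ra, Socs3, Jak2, the globins and the fat and pancreas markers were named after their values were seen. The 10 genes and all lists were chosen with earlier results of these data known. Replicate numbers were not used as a pairing.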

Additional observations from a re-analysis of the deposited data

Results flagged for a closer look

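HFDfre 4 stood far from the rest of its group in the summed level of Hamp and Hamp2, at 7.665 log2 CPM against 9.286 to 9.804 in the other 4 HFDfre libraries. The gap to the nearest was 0.758 of the whole range of the group. This was the only such value among 40 sets of values searched, where chance gives about 1 in 20, or 2.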

How the results depend on the processing

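Over 19 alternatives, Hamp, Bmp6, Hfe, Tfr2, Trf and Slc40a1 kept their direction and stayed above an adjusted p of 0.05, with Hamp between -0.80 and -0.33 and Slc40a1 between -0.55 and -0.20. Hamp2, Fth1 and Ftl1 kept theirs and passed with DESeq2 (-1.48, -0.59 and -0.44) and without HFDfri 1, and Hamp2 also without HFDfri 2. Over the fits that each left out 1 library, Hamp2 ranged from -1.79 to -1.27, Fth1 from -0.69 to -0.51, Ftl1 from -0.53 to -0.40 and Tfrc from -0.25 to 0.026, the last reversed without HFDfre 4, and the summed hepcidin level ranged from -0.91 to -0.34. The number of the 10 genes called was 0 by edgeR, 3 by DESeq2, and 0 to 3 with 1 library left out.

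Of all tested genes, 150 were called, 1033 with DESeq2, 210 with at least 10 counts in every library, 93 with the ribosomal locus as a covariate, 76 with library totals, 72 with no filter, 2 within the libraries under 3% of that locus (an alternative chosen after seeing the data), and 6 to 1106 with 1 library left out. In the same order of settings, leaving out the filter on 10 counts, the iron lists together had 14, 1, 3, 2 and 0 of 82 and 0 to 17 with 1 library left out, against 6. The other inputs to hepcidin had 0 with the covariate, 1 with library totals, 1 with no filter and 0 within those libraries, and 0 to 5 with 1 library left out, against 3. The uptake list had 1 with the covariate, 1 with no filter and 0 within those libraries, and 0 to 3 with 1 library left out, against 3. With DESeq2, storage and export had 2, haem synthesis and breakdown 4 and mitochondrial iron 1, against 0 in each, and each had 0 to 3 with 1 library left out.

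The groups share replicate numbers in the sample titles, but the submitters' sample names mostly carry other numbers. Same-numbered libraries are therefore not known to belong together, and the replicate block rests on that pairing. The correlations between the deviations of same-numbered libraries were -0.136 to 0.0813, and 2 of 4 libraries correlated best with their own number. With the replicate block 0 genes of all passed the adjusted threshold (2536 at an unadjusted p under 0.05), hence 0 of the iron lists, 0 of the other inputs and 0 of the uptake list. The cause of these changes was not tested. Of the 10 genes, Bmp6 had the fewest counts, 15 to 101 per library.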
